A study of Eptesicus fuscus and Canis lupus familiaris and Equus caballus with 4 samples.

Results

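The miR-449 hairpins listed for bat and horse testis are described here. The members were every bat candidate on contig ALEH01147001.1 and every horse candidate in a window of 25000 bases on chromosome 21. This gave 4 of 1453 listed candidates, 2 of 762 in the bat and 2 of 439 in the horse. Small RNA from adult testis of the big brown bat Eptesicus fuscus, the horse and the dog was sequenced, with 1 library of each species used here and no treatment named in the labels. A candidate is a genomic segment predicted to form an RNA hairpin, with reads from at least one of its arms. With 1 library per species there were no replicates, so differences between species carry no test.

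MicroRNAs are cut from a hairpin, first in the nucleus and then by Dicer, and the strand kept in the Argonaute protein pairs with target messages mainly through its seed. The miR-449 family and its relatives of the miR-34 family share a seed. They are known for repressing cell cycle genes, and for their part in multiciliated cells and in sperm formation, where loss of both families leaves male mice infertile. The strand from the left side of the hairpin is called 5p and the one from the right side 3p.

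The 4 mature sequences are shown first because the arms, the seeds and the differences between the species all rest on them. They are printed 5′ to 3′ as DNA letters, as in the deposited lists, with the seed (bases 2 to 8) in capitals.
Bat Candidate_639, 5p: tGGCAGTGtattgttagctggttgg
Horse Candidate_149, 5p: aGGCAGTGtgttgttagctggctgc
Bat Candidate_638, 3p: tCAGCTAAcatgcaactgctgtc
Horse Candidate_164, 3p: gCAGCCACaactaccctgccactt

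The 4 candidates were the arms of 2 hairpins, 1 per species. In the bat, Candidate_639 spanned ALEH01147001.1, 769 to 903 on the minus strand, with its mature sequence at 844 to 868. Candidate_638 spanned 773 to 903 of the same strand, with its mature sequence at 808 to 830. In the horse, Candidate_149 spanned chromosome 21, 17151814 to 17151938 on the plus strand, with its mature sequence at 17151844 to 17151868. Candidate_164 spanned 17151814 to 17151936, with its mature sequence at 17151883 to 17151906. The sources used here do not give the builds of the bat and horse positions, and no annotation of them was used, so no host gene, exon or intron is stated.

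The whole hairpins follow, since the species are also compared over the loop and the flanks. Capitals mark the 5p and then the 3p mature sequence.
Bat Candidate_639 hairpin: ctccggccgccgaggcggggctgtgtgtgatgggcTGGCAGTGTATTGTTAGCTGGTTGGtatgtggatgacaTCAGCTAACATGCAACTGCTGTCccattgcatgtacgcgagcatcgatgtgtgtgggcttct
Horse Candidate_149 hairpin: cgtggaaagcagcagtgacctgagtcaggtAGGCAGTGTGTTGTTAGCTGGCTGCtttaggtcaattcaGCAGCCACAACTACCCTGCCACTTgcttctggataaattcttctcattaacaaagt

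The 5p strand was the main product of both hairpins. Bat Candidate_639 had 414 reads (375 to 456, exact Poisson 95% interval) from 49 distinct read sequences. Horse Candidate_149 had 218 reads (190.02 to 249) from 11 distinct sequences. In whole testis, fewer cells of a type and less RNA per cell cannot be told apart. These intervals, and all others on reads below, cover counting error only, since reads copied by PCR are not independent molecules. All 5 models of the hairpin caller predicted each of the 4 candidates.

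The 3p strand was scarce in the bat and less so in the horse. Bat Candidate_638 had 7 reads (2.81 to 14.4), each a different sequence. Horse Candidate_164 had 53 reads (39.7 to 69.3) from 11 distinct sequences. The rows of 1 hairpin therefore carried separate counts for its arms. The 3p strand made up 1.66% of the 421 bat reads on both arms (0.671 to 3.40, exact Clopper-Pearson 95% interval) and 19.6% of the 271 horse reads (15.0 to 24.8). The intervals did not overlap. By distinct sequences, a measure chosen after seeing the data, the 3p share was 12.5% in the bat (5.18 to 24.1) and 50% in the horse (28.2 to 71.8).

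**Figure D1:**
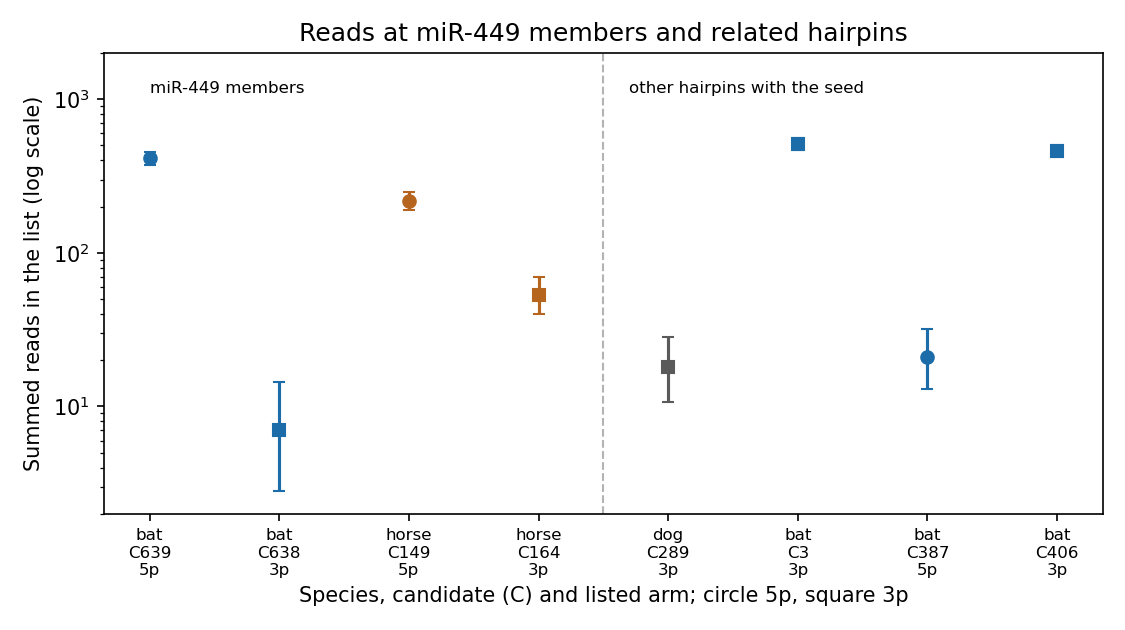
Summed reads (log scale) at each miR-449 member, left of the dashed line, and at 4 other hairpins that hold the same seed, right of it, with exact Poisson 95% intervals that are smaller than the symbol where none shows. The 4 are dog Candidate_289, which from general knowledge resembles miR-449b, and 3 bat hairpins. They are not all hairpins with the seed, but those picked by alignment score with the bat 5p sequence. Circles are listed 5p and squares listed 3p sequences, and the bat 3p candidate, at 7 reads, lies lowest.

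Arm use was set beside the other hairpins of each list that had both arms listed and at least 100 reads on them. There were 48 such bat hairpins, in which the less read arm held between 0.0617% and 49.1% of the reads, with a median of 2.29%. The bat miR-449 hairpin lay near the middle, and 21 of the 48 had a lower share. In the horse there were 18, from 0.0317% to 49.3% with a median of 1.68%, and 16 of them lay below the miR-449 hairpin. The horse hairpin was thus among the 3 highest of these 19 hairpins with at least 100 reads in the share of its less read arm. Some horse hairpins with fewer reads had higher shares. Some of these hairpins are near-copies that list the same reads, so they are not independent.

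**Figure D2:**
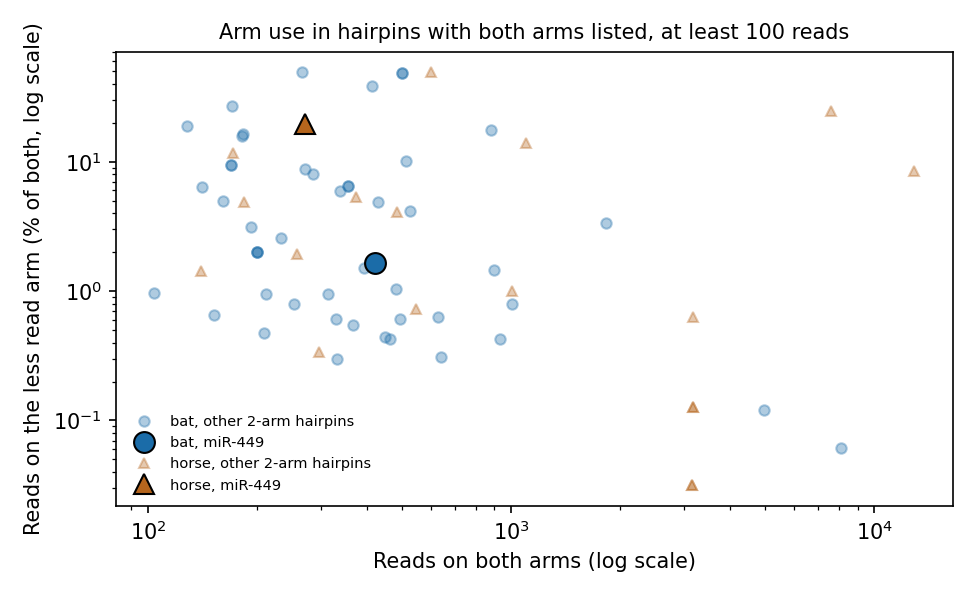
Reads on the less read arm, as a percentage of both arms, against the reads on both arms (log axes), for hairpins with both arms listed and at least 100 reads. The large circle is the bat miR-449 hairpin at 1.66% and the large triangle the horse hairpin at 19.6%.

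Both 5p sequences stood high in their lists without being among the leaders. Bat Candidate_639 ranked 42 of 762 by reads, between Candidate_217 on ALEH01033272.1 with 445 reads and Candidate_554 on ALEH01124951.1 with 408. Horse Candidate_149 ranked 31 of 439, between Candidate_736 on chromosome 19 with 253 reads and Candidate_600 on chromosome X, 1 of 5 candidates with 183. The 3p sequences ranked 278, tied with 12 others, in the bat and 52 in the horse. The bat neighbours by reads were Candidate_137, 1 of 12 candidates with 8 reads, and Candidate_164, 1 of 18 with 6, a bat candidate that only shares its number with the horse one. The horse neighbours were Candidate_701 with 63 reads and Candidate_48 with 52. The median candidate of either list had 3 reads.

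**Figure D3:**
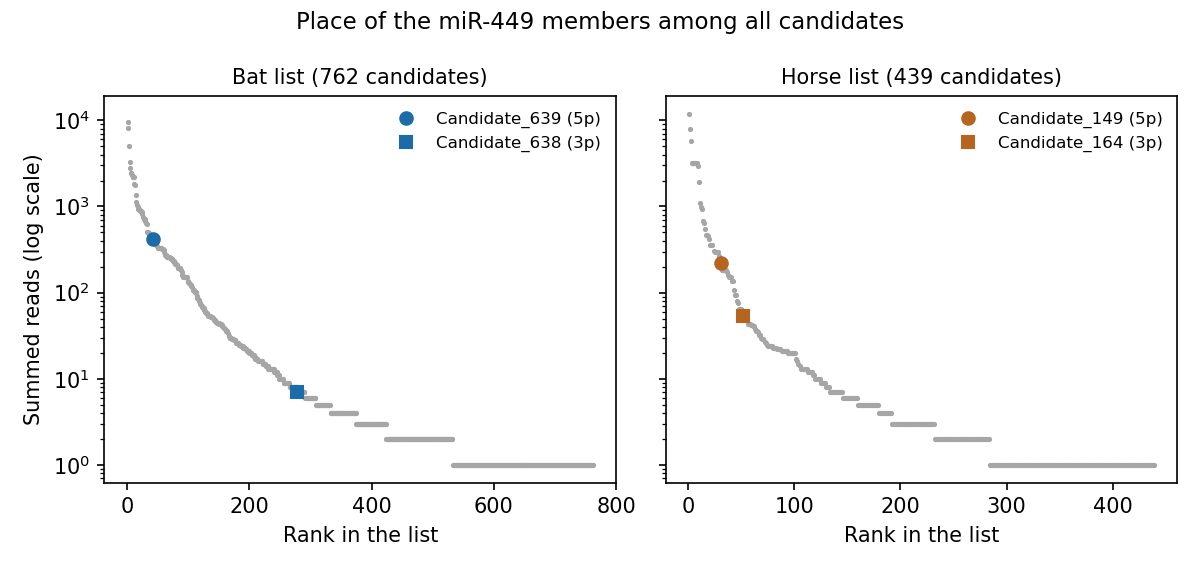
Summed reads (log scale) against rank for every candidate of the bat and horse lists (grey), with the miR-449 members coloured. The 5p members stand at ranks 42 and 31, and the bat 3p member lies far down its list at rank 278.

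Horse 5p reads were spread over few distinct sequences. Candidate_149 averaged 19.8 reads per distinct sequence, bat Candidate_639 averaged 8.45 and horse Candidate_164 averaged 4.82. Of 16 horse candidates with reads within 1.5 times those of Candidate_149, 1 had fewer distinct sequences than its 11, and their median was 21.5. For bat Candidate_639, 20 of 29 such candidates had fewer than its 49, and their median was 37. The sources used here do not say how reads of differing length or with mismatches were counted.

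The 5p count was higher in the bat on each of 3 denominators, but the size of the ratio depended on the denominator. As listed, the bat 5p count was 1.90 times the horse count (1.61 to 2.25). Per listed read, 5p took 0.465% of 89091 bat reads (0.421 to 0.512) and 0.357% of 61054 horse reads (0.311 to 0.408), a ratio of 1.30 (1.10 to 1.54). Per read in the authors' analysis the 5p ratio was 10.5 (8.88 to 12.4). Those totals were bounded from the deposited fractions, at 98889 to 99340 reads in the bat and 545429 to 549348 in the horse. The listed reads were thus most of the bat total but a small part of the horse total. The ratio of 10.5 carries this difference between the totals, which its interval does not cover. Whether the totals were defined alike is not given. With both arms together the ratio per listed read was 1.06 (0.912 to 1.24), an interval that includes equal shares.

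The 3p strand went the other way. The bat count was 0.132 times the horse count as listed (0.0507 to 0.292) and 0.0905 times per listed read (0.0347 to 0.200). Per read in the authors' analysis the ratio was 0.729 (0.280 to 1.61), an interval that includes equal levels. With 1 library per species, none of these intervals tests a difference between the species.

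The 5p sequences of bat and horse were the same at 21 of 25 bases, with an identical seed. The differing bases are in capitals here.
Bat Candidate_639: TggcagtgtAttgttagctggTtgG
Horse Candidate_149: AggcagtgtGttgttagctggCtgC
Counted from the 5′ end of the bat sequence, with the bat base first, the differences were T1A, A10G, T22C and G25C. The first lies just before the seed and the others after it. The last falls at base 25, which is also the longest mature sequence in any list, so the true 3′ end of these strands may lie before it. Over the first 18 bases there were 2 differences.

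The 3p sequences had far less in common. Aligned from their first base, bat Candidate_638 and horse Candidate_164 differed at 13 of 23 bases, and 2 of these fell in the seed. Their seeds, CAGCTAA in the bat and CAGCCAC in the horse, are those in capitals above. No other candidate in any of the lists carried the mature sequence of a member.

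Beyond the arms the hairpins were also unlike. Globally aligned, the whole hairpins were identical at 75 of 123 aligned bases (61.0%, 51.8 to 69.6), with 14 gap columns. Intervals on identity treat aligned bases as independent draws, which they are not, so they give no test. From the start of 5p to the end of 3p the identity was 71.2% (57.9 to 82.2). By region it was 84% in the 5p arm, 66.7% in the loop, 59.1% in the 3p arm, 53.3% before the 5p arm and 51.6% after the 3p arm. Among all 439 horse hairpins, 1 aligned to the bat hairpin with a higher score, 7 against 3 for Candidate_149, and the median score was -17. Alignment of whole hairpins therefore did not place the horse member first. Identity was highest in the 5p arm.

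A closer partner of the horse hairpin was listed in the dog. Dog Candidate_289, at chromosome 2, 42542049 to 42542177 on the minus strand of CanFam3.1, had 18 reads (10.7 to 28.4) from 2 distinct sequences. The listed dog mature sequence was the 3p strand at 42542084 to 42542105. Its hairpin is shown because it also holds the 5p sequence, for which the dog list had no row. Capitals mark the listed 3p sequence.
Dog Candidate_289 hairpin: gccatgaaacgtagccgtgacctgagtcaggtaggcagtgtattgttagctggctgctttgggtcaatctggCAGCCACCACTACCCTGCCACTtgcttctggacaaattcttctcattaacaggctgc
Dog 5p stretch, seed in capitals: aGGCAGTGtattgttagctggctgc

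Horse and dog hairpins matched at 110 of 125 aligned bases (88%, 81.0 to 93.1), against 75 of 123 for bat and horse. Their 5p stretches differed at 1 base, G10A, with the horse base first. Their 3p sequences also differed at 1 base, A9C, counted from the 5′ end of the horse sequence. At position 10 the dog has the bat's base, and at the other differing positions it has the horse's, so bat and dog 5p differed by T1A, T22C and G25C. The horse hairpin scored 89 against the dog one, and the next dog hairpin scored 1. Against the bat hairpin the dog one also came first of its list, with a score of 7, the next at 2, and an identity of 63.2% (54.1 to 71.6). The dog hairpin had been picked as the best of its list in alignment with the bat 5p sequence. Its first place against the bat hairpin is therefore partly fixed by that choice.

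The label of the members holds at the level of the family but not of a single gene. The bat 5p sequence is that known as miR-449a, whereas the horse 5p and 3p sequences and the dog hairpin resemble miR-449b, a neighbouring copy in the mammalian cluster. These names come from general knowledge, since no reference table of miRNA sequences was used. If the names are right, the bat and horse hairpins are different copies, and then differences between species and between copies cannot be told apart in the comparisons above.

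Neither locus had a second listed copy. The bat contig held no other candidate, and none lay within 50000 bases of the horse hairpin. The nearest of the 4 other candidates on horse chromosome 21 was Candidate_158, 5500890 bases away, with 5 reads. The dog hairpin's nearest neighbour on its chromosome was 14865421 bases away. Any removal of known miRNAs from the lists is not given, so an unlisted copy is not thereby unexpressed. In RefSeq's annotation of another bat assembly, DD_ASM_mEF_20220401, MIR449 has 1 entry, next to GPX8 on one side and LOC129148774, MCIDAS and CCNO on the other. MCIDAS and CCNO are known for the making of multiple cilia. The bat contig was not placed on that assembly.

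The predicted folds differed between the species. RNAfold gave the bat hairpin a minimum free energy of -56.9 kcal/mol and the horse hairpin -36 kcal/mol, where lower means more stable. These energies cover the whole listed sequence with its flanks. In the bat fold, bases of each flank also paired within that flank, outside the stem of the arms. In the horse and dog folds no flank paired with itself. How much of the difference in energy lies in the flanks was not tested. In the bat list 63.3% of candidates were less stable than the miR-449 hairpin, and 7.97% of horse candidates were less stable than theirs. The dog hairpin came to -40.8 kcal/mol, with 23.0% of the dog list less stable. Per base the energies were -0.42, -0.29 and -0.32 kcal/mol in the order bat, horse, dog.

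The bat 5p sequence was more fully paired. In the bat 22 of 25 bases were paired, and the unpaired ones were positions 12, 23 and 25. In the horse 18 were paired, with positions 1 and 7 and a run from 15 to 19 unpaired. The dog stretch also had 18 paired, with positions 1, 7, 11, 14, 15, 16 and 18 open. All 7 seed bases were paired in the bat and 6 of 7 in the horse and dog. The stretch between 5p and 3p was 13 bases long in the bat hairpin, against 14 for the horse and 15 for the dog.

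The fold also placed the differing bases. Position 1 was paired in the bat, whose base there is T, and open in the horse and dog, whose base is A. Position 10 was paired in all 3 hairpins, whether the base was A or G. Position 22 was also paired in all 3. Position 25 went the other way from position 1, open in the bat with its G and paired in the horse and dog with their C. In the bat the 3p sequence ran 2 bases past the partner of the first 5p base, the kind of 3′ overhang that Drosha and Dicer leave. In the horse it ran 4 bases past the partner of 5p position 2, and in the dog 3 bases.

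**Figure D4:**
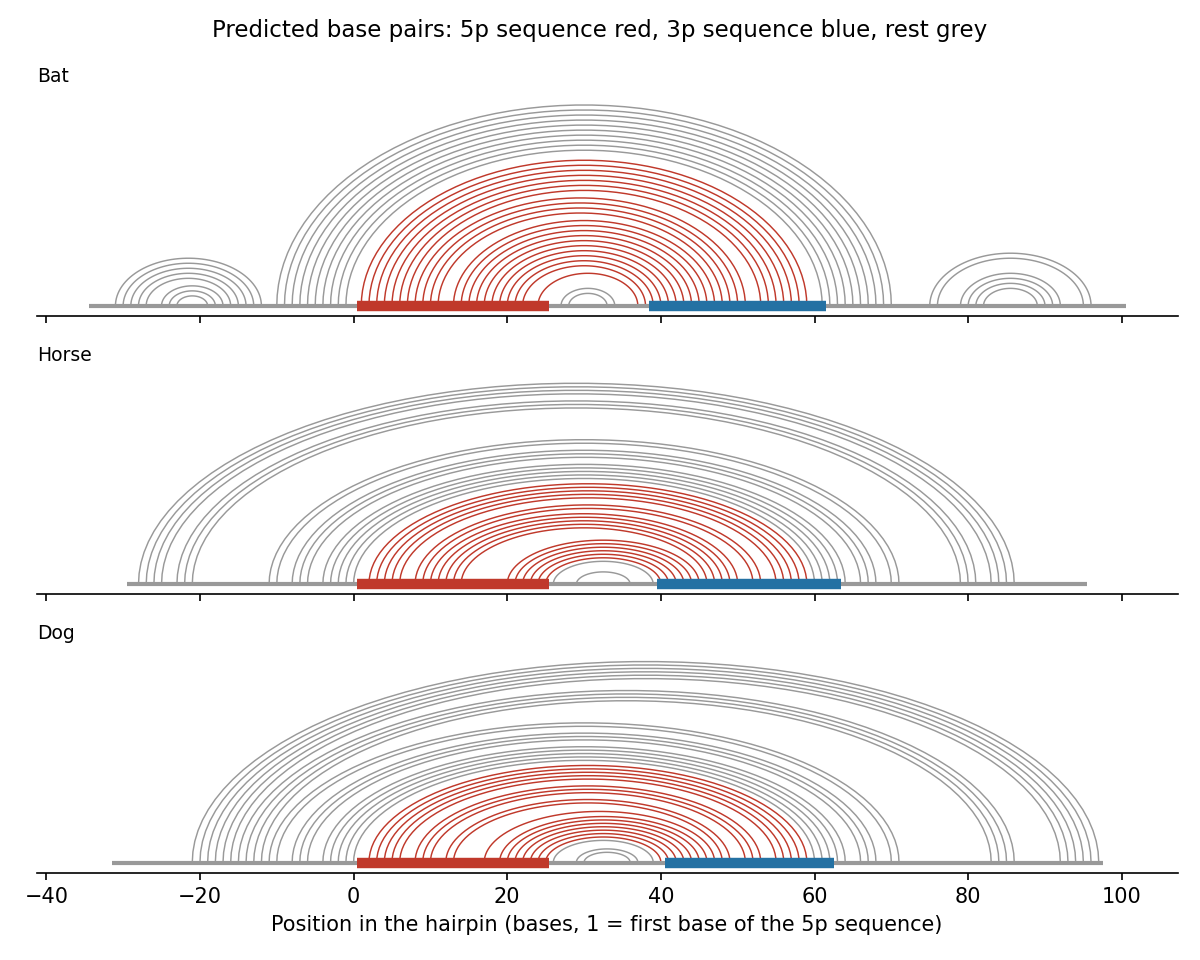
Predicted base pairs (arcs) along the bat, horse and dog hairpins, with positions in bases from the first base of the 5p sequence. Thick lines mark the 5p (red) and 3p (blue) sequences. The bat 5p sequence is paired at 22 of 25 bases, and the horse and dog ones at 18, with the gap near positions 14 to 19.

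The seed GGCAGTG was found in few listed mature sequences. At bases 2 to 8, on the listed strand, 2 of 762 bat and 1 of 439 horse mature sequences carried it, and none of the 252 dog ones. These were the 5p members, from which the seed was read, and bat Candidate_387. The dog hairpin had no row for 5p, and strands without a row are not in these counts. Any known miRNAs left out of the lists are not counted either, so the counts do not say how common the seed is in testis. Anywhere in the hairpin, 18 bat candidates held the seed (2.36%), as did 19 horse (4.33%) and 10 dog candidates (3.97%), so its presence in a hairpin alone says little. All hairpins were therefore aligned to the bat 5p sequence. The horse members scored 19 and the dog hairpin 21 of a possible 25, against at most 11 for any other horse or dog hairpin. The dog hairpin was picked by this score, so its first place in the dog list is no separate result.

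In the bat, 3 other hairpins held the seed and scored 14 to 16. They were picked out after their values were seen, and a hairpin without the seed, Candidate_581 with 8 reads, also scored 14. From general knowledge they resemble the miR-34 family, the relatives named above. The stretch that holds the seed is given for each.
Candidate_387, resembling miR-34a: tGGCAGTGtcttagctggttgttgt
Candidate_3, resembling miR-34b: aGGCAGTGtaattagctgattgtgc
Candidate_406, resembling miR-34c: aGGCAGTGtagttagctgattgcta

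Of these 3 relatives, all but Candidate_387 were listed from the other arm. Candidate_3, at ALEH01147488.1, 10388 to 10532, had 512 reads (469 to 558), and Candidate_406, at ALEH01147489.1, 155 to 287, had 460 (419 to 504). Both list a 3p mature sequence, and neither hairpin had a row for 5p, the arm with the shared seed. Candidate_387, at ALEH01095006.1, 14470 to 14592 on the minus strand, lists 5p with the shared seed, and had 21 reads (12.999 to 32.1). Among listed bat sequences that carry the seed at bases 2 to 8, miR-449 thus had 414 reads and the other 21. Over all listed rows of the 4 hairpins there were 1414 reads, of which the miR-449 hairpin had 29.8% (27.4 to 32.2). Only the miR-449 hairpin had rows for both arms, so this share sets unlike totals side by side. In the same RefSeq annotation MIR34B and MIR34C are next to each other. No horse or dog hairpin besides those above scored over 11.

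**Figure D5:**
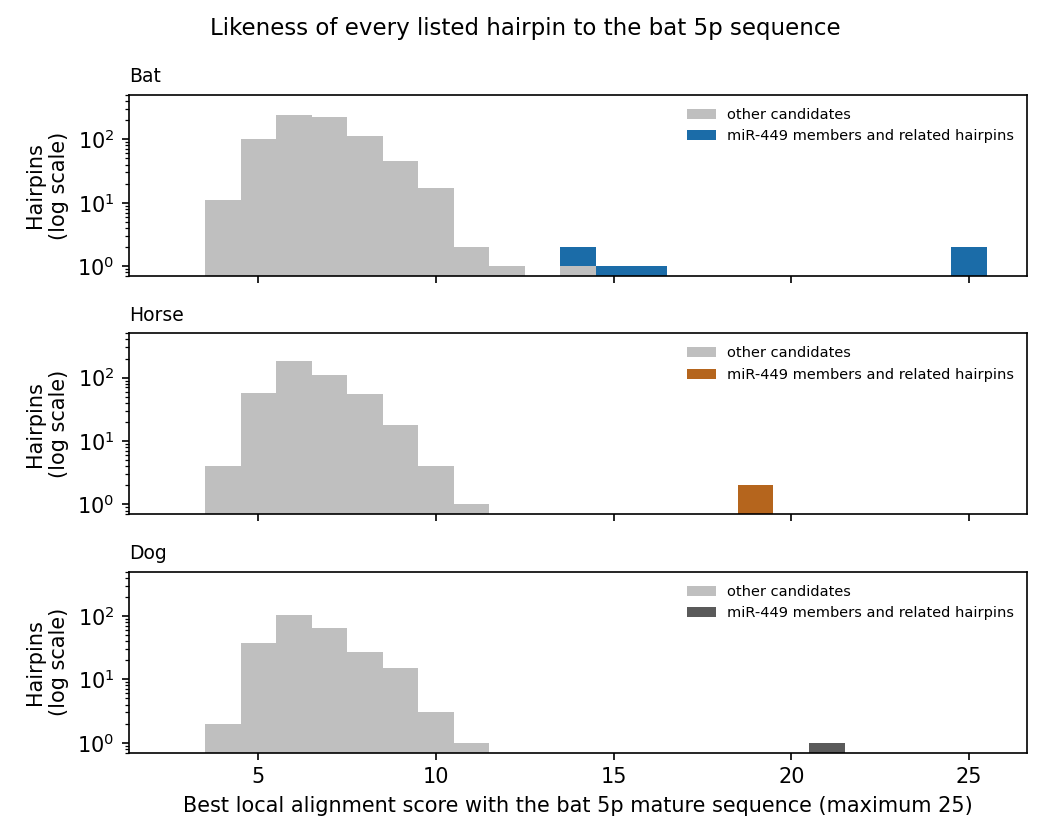
Number of hairpins (log scale) by best local alignment score with the bat 5p sequence, in the bat, horse and dog lists. Grey bars are other candidates and coloured bars the miR-449 members and related hairpins. The horse members, at 19, and the dog hairpin, at 21, lie clear of the rest of their lists, while the bat relatives at 14 to 16 adjoin theirs.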

How the data were processed

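Testis small RNA was sequenced as 50 bp single-end reads, per the labels' protocols. Of 4 libraries, 3 were used, 1 per species, and the other bat library was not analysed here. The lists are output of the hairpin caller miRanalyzer, per the column description deposited with them. The authors' deposited counts, without normalization, are whole numbers of distinct and summed reads per candidate. The deposited score says how many of 5 models predicted a candidate. The deposited fraction is the count over all reads in the authors' analysis, to 3 decimals. The submitters' processing notes name CanFam3.1. The aligner, the trimming and the builds used for bat and horse were not given in the sources used here.

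Stated mature positions matched the hairpin letters in all candidates. Alignments used Biopython 1.88 (match 1, mismatch -1, gap opening -2, extension -1) and folds RNAfold 2.7.2 at 37 degrees, in Python 3.11.15 with scipy 1.17.1. Mature sequences were compared ungapped at the best offset of up to 2 bases. A mature sequence centred left of the hairpin's middle was called 5p, otherwise 3p. A scan tested on simulated data recovered 200 of 200 planted sequences with 4 substitutions and 116 of 200 with 6. Recovered means a score above all of 762 shuffled hairpins. Planted sequences had no gaps and real hairpins were not used, so this says nothing on the lower-scoring bat relatives. All members were named, with the candidates next to them by reads, neighbours in place and the hairpins with the seed that were picked by alignment score. The members and lists were chosen with earlier results of these data known. Alternatives were other denominators, a 10-read minimum, other alignment, folding and seed settings.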

Additional observations from a re-analysis of the deposited data

How the results depend on the processing

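The member reads, 421 in the bat and 271 in the horse, were the same with identical sequences once. With a 10-read minimum they were 414 and 271. Neither alternative could move them much, so neither shows robustness. No other candidate carried a member's sequence, and only the bat 3p candidate had fewer than 10 reads. The share of listed reads, 0.473% and 0.444% for both arms, was 0.537% and 0.548% with identical sequences once, and 0.529% and 0.550% without the top candidate. Per read in the authors' analysis, chosen after seeing the data, it was 0.425% and 0.0495%. The 3p share by distinct sequences was 12.5% and 50%. The 5p differences numbered 2 over the first 18 bases in place of 4. Whole-hairpin identity of bat and horse, 61.0%, was 71.4% when trimmed to 10 bases beside the arms and 71.03% with free end gaps, the latter chosen after seeing the data. Per base, 53.1% of the bat list and 1.82% of the horse list were less stable. In total, 16 of 29 alternatives moved no value beyond its interval or count, those for member reads among them. No paired analysis was possible because 1 library per species was analysed. Depth limits the bat 3p strand most, at 7 reads.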
